A study of Mus musculus with 4 samples.

Results

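The 8 mouse genes whose messenger RNAs are known to concentrate in the protrusions of migrating cells, Rab13, Pkp4, Kank2, Ddr2, Net1, Cyb5r3, Inpp1 and Dynll2, were followed probe set by probe set on Affymetrix arrays. A probe set is the group of short probes on the array that together report 1 transcript or a group of related transcripts. Every probe set whose annotation gave exactly 1 gene symbol, and that symbol 1 of these 8 genes, was taken, which gave 16 probe sets of the 45101 on the array and of the 34958 with 1 gene symbol, and 8 of 18194 genes. The genes were picked with results of this same comparison known, so their differences between fractions are given as a description, with no test.

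The arrays measured total RNA from pseudopodia, the protrusions that cells push through the pores of a membrane, and from the cell bodies left above it. All samples were NIH/3T3 cells, an established mouse embryo fibroblast line with no transgene named in the labels. Cells starved of serum overnight were left for 2 h to spread on a porous membrane coated with fibronectin, and lysophosphatidic acid (LPA), a lipid that stimulates cells through surface receptors, was then placed underneath for 1 h, at 150 ng/ml. Cells were then fixed with 0.3% formaldehyde for 10 min, and each fraction was scraped off after the other had been wiped away. Both fractions therefore came from stimulated cells, and unstimulated cells were not analysed here. There were 2 pseudopodia arrays and 2 cell body arrays, labelled as independent samples, but the labels do not say how the cultures were kept apart, so error values and p-values measure only the spread between these samples.

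Some messenger RNAs are carried along microtubules to the tips of protrusions and held there, which places their translation close to the adhesions and cell edge they serve. In fibroblasts one such group depends on the adenomatous polyposis coli protein (Apc), on stabilised, detyrosinated microtubules and on kinesin motors, and Rab13, Pkp4, Kank2, Ddr2, Net1, Cyb5r3, Inpp1 and Dynll2 have been named among its members. The genes themselves do different work, from vesicle traffic and cell adhesion to redox and inositol phosphate metabolism.

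Signals are the values of the deposited table on its linear scale. Differences are pseudopodia minus cell body on a log2(signal + pseudocount) scale after scaling, with the limma standard error (SE, n = 2 arrays per fraction), and they understate the change of dim probe sets. Because each array had been scaled to the same trimmed mean, a difference compares shares of the total signal in each fraction, and more protrusions carrying an RNA cannot be told apart from more of that RNA in each protrusion. Same-numbered arrays shared an experiment code and a scan day, so the difference within each replicate pair is given too. Probe sets were kept when their mean reached the median over the probe sets other than controls, equivalent to a deposited signal of 27.8.

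As a measure of the fractions themselves, summed signals of 12 fibroblast marker genes were 137283.2 to 155150.2 on the 4 arrays, and those of 22 markers of other cell types were 2859.1 to 3492.8. None of these markers was at 0. Thy1, a fibroblast surface marker, was too dim to be kept, and Krt14 was the brightest of the second list. The summed signal of 4 RNAs retained in the nucleus, which mark cell bodies, was 1427.4 and 2821.1 on the pseudopodia arrays against 6376.7 and 7067.3 on the cell body arrays. The limma test between fractions called 1.08% of all kept probe sets higher in pseudopodia and 3.32% lower, and with each gene taken by its brightest probe set it called 0.876% of 10962 genes higher and 1.64% lower. Of the kept markers limma called 1 of 11 fibroblast genes lower (Col5a2, -0.98), 0 of 9 genes of other cell types (0 at an unadjusted p under 0.05) and 2 of 4 nuclear RNAs lower (Neat1, -2.17, and Kcnq1ot1, -1.54). The ratio of 3′ to 5′ actin control signal, a measure of RNA quality, was 1.55 (replicate 1) and 1.89 (replicate 2) for cell bodies, and 1.77 and 3.41 for pseudopodia. The geometric mean of the hybridization controls, transcripts added in known amounts before hybridization, was 1.17 and 1.36 times as high on pseudopodia as on cell body arrays. The actin ratio of pseudopodia replicate 1 thus lay between those of the cell body arrays, and that of pseudopodia replicate 2 stood above all others. The same ratio for Gapdh was 0.92 and 0.95 for cell bodies, and 0.96 and 1.01 for pseudopodia. The part of these measures in the results below was not tested. Scaling on the hybridization controls instead moved the median difference of all kept probe sets from -0.03 to -0.32, and differences are best read relative to that shift.

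Promoter windows are shown first for 3 members with high pseudopodia signal, because these members had like differences between fractions and their start regions can be set side by side. They run from 250 bases before to 50 after a transcript start in RefSeq's annotation of GRCm38.p6, 5′ to 3′ on the strand of the gene, with each GC box (GGGCGG or its reverse complement CCGCCC, overlaps included) in capitals. Rab13 lies at chr3:90213465-90213764 (plus strand, the first of 2 windows), Pkp4 at chr2:59160600-59160899 (plus strand, the first of 2 windows) and Kank2 at chr9:21798497-21798796 (minus strand).
Rab13: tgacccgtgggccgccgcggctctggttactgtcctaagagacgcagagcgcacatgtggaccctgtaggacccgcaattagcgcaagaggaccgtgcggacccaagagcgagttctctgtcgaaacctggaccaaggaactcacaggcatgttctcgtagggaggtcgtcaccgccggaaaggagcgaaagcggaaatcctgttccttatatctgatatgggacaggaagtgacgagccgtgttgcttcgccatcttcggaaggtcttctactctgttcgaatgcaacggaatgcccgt
Pkp4: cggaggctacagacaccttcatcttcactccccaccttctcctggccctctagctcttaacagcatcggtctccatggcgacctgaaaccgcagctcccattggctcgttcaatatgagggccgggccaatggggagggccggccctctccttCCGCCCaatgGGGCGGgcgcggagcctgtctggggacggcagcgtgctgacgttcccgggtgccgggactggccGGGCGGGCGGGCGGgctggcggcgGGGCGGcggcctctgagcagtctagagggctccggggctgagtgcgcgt
Kank2: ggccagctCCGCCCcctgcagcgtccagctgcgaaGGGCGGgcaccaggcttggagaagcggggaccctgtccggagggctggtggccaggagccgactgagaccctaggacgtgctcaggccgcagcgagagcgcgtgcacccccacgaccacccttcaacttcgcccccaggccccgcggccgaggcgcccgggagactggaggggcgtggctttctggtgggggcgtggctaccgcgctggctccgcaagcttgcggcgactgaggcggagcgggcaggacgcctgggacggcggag
The Rab13 window held 0 GC boxes, the Pkp4 window 6 and the Kank2 window 2, and their GC contents were 56.7%, 69.3% and 74.0%. Over the 9 windows matched for 6 of the 8 members (Rab13, Pkp4, Kank2, Ddr2, Net1 and Inpp1), a GC box was found in 6, against 35.7% of all 32851 windows of this length. CCAAT on either strand was found in 3 windows, against 37.4% of all, and TATAAA in 1, that of Ddr2, against 13.6%. The CArG box, the site of serum response factor, was found in 0 windows, against 1.63% of all. These matches describe letters only, and the arrays measured RNA distribution between fractions, not transcription.

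Most members were several-fold brighter in pseudopodia. Of the 16 member probe sets, 15 were kept, and 12 of the 15 were at least 1.5-fold higher in each of the 4 possible pairs of a pseudopodia and a cell body array, where 2.79% of all 22519 kept probe sets were. Both pseudopodia arrays lay above both cell body arrays for 13 of the 16 and 12 of the 15, where 24.8% of all kept probe sets did. Since the genes were chosen on this comparison, nothing is read from these counts. The median difference was 1.74 over the 15 kept member probe sets (1.73 and 1.75 in the replicate pairs), 1.72 over all 16, and -0.03 over all kept probe sets. Every probe set of Rab13, Pkp4, Kank2 and Ddr2 was past 1.5-fold in all array pairs, the single probe set of Net1 was not, and Cyb5r3, Inpp1 and Dynll2 had probe sets of both kinds. The Inpp1 probe set past 1.5-fold, 1442073_at, read 26.1 and 8.0 in cell bodies, under the limit of 27.8, and was kept through its pseudopodia values. The Dynll2 probe set past 1.5-fold, 1418258_s_at, is paired with a RefSeq transcript given to Arhgdia.

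**Figure D1:**
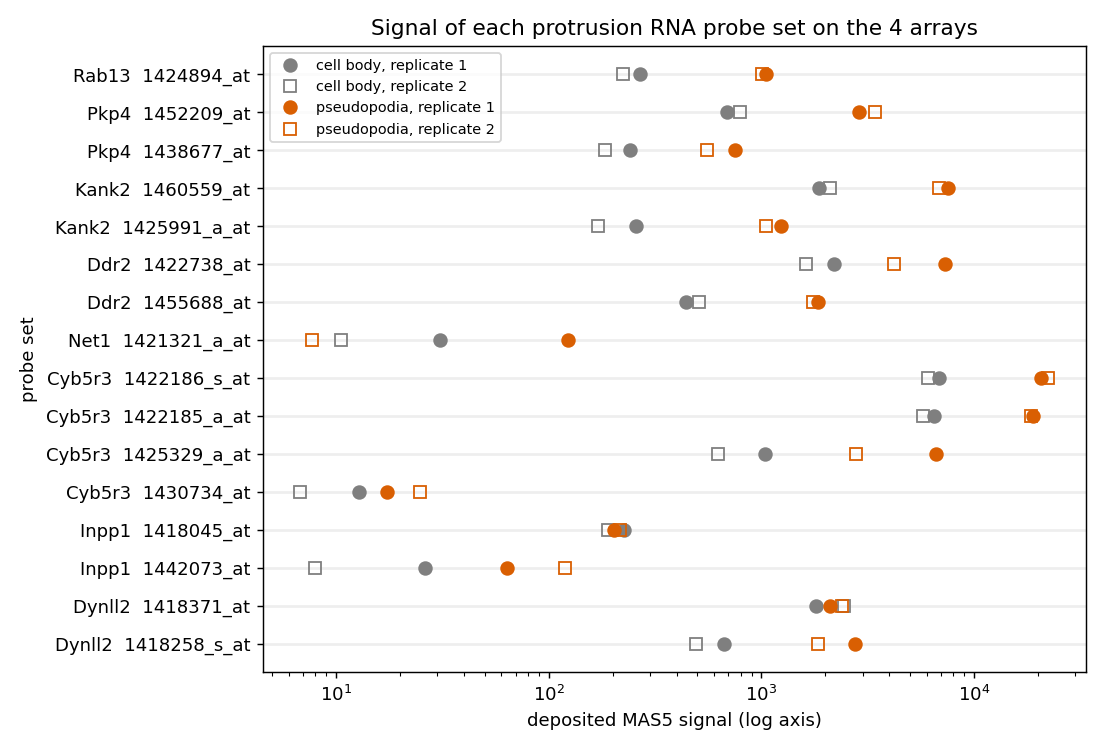
Deposited signal (log axis, arbitrary array units) of each of the 16 member probe sets on the 2 cell body and 2 pseudopodia arrays, 1 point per array. The pseudopodia points lie above the cell body points for 13 probe sets and overlap them for Net1, Inpp1 1418045_at and Dynll2 1418371_at.

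The member of the vesicle traffic machinery, Rab13, is a small GTPase that guides membrane traffic to cell junctions and the cell edge. Its only probe set, 1424894_at, had signals of 269.5 and 223.6 in the cell bodies against 1047.3 and 1002.3 in the pseudopodia. Both pseudopodia values were high and close to each other, and the fractions did not overlap. The mean went from 246.55 ± 32.46 to 1024.80 ± 31.82 (SD, n = 2 each), a difference of 1.99 ± 0.21, with 3.89-fold in pair 1 and 4.48-fold in pair 2. It was the 10th largest difference of the 22519 kept probe sets.

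Among the adhesion and scaffold genes, Pkp4 (plakophilin 4) encodes an armadillo-repeat protein of cell junctions. Its brighter probe set, 1452209_at, read 691.5 and 791.9 in cell bodies against 2882.9 and 3435.8 in pseudopodia, a difference of 2.06 ± 0.20. The dimmer one, 1438677_at, read 242.4 and 184.7 in cell bodies against 749.4 and 556.7 in pseudopodia, a difference of 1.54 ± 0.25. The fractions were apart on both probe sets, and each gave nearly the same ratio in both replicate pairs, 4.17 and 4.34 on the first and 3.09 and 3.01 on the second. The differences of the 2 probe sets lay 0.53 apart.

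Kank2 encodes a scaffold that binds talin at the rim of focal adhesions and links it to the cortical complex that captures microtubules. Probe set 1460559_at read 1859.5 and 2111.2 in cell bodies against 7580.2 and 6822.3 in pseudopodia, a difference of 1.85 ± 0.17. On 1425991_a_at the cell body values were 257.2 and 171.1 and the pseudopodia values 1239.5 and 1056.3, a difference of 2.36 ± 0.25 and the 3rd largest of all kept probe sets. The fractions were apart on both. The larger ratio was in pair 1 on the bright probe set (4.08 against 3.23) and in pair 2 on the dim one (4.82 against 6.17), so neither pair was the higher throughout.

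Ddr2 encodes a receptor tyrosine kinase that is activated by fibrillar collagen. Probe set 1422738_at read 2185.8 and 1630.0 in cell bodies against 7311.8 and 4194.2 in pseudopodia, a difference of 1.54 ± 0.28. Both fractions were brighter in replicate 1, and the fractions did not overlap. The second probe set, 1455688_at, read 440.8 and 506.8 against 1854.6 and 1741.5, a difference of 1.89 ± 0.20. The pair ratios were 3.35 and 2.57 on the first probe set and 4.21 and 3.44 on the second.

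The signalling member Net1 encodes a guanine nucleotide exchange factor, a protein that switches on small GTPases. Its only probe set, 1421321_a_at, read 31.0 and 10.6 in cell bodies against 123.8 and 7.7 in pseudopodia. The pseudopodia arrays held both the highest and the lowest value, so the fractions overlapped. The difference was 1.57 in pair 1 and -0.17 in pair 2, with a mean of 0.70 ± 0.79, the widest SE of the members. Its mean level was at the 51.0 percentile of the probe sets other than controls, just inside the limit for being kept, and the difference without single arrays ran between -0.58 (without pseudopodia replicate 1) and 1.98 (without pseudopodia replicate 2).

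The metabolic member Cyb5r3 encodes NADH-cytochrome b5 reductase, which passes electrons to cytochrome b5 and is anchored in membranes of the endoplasmic reticulum and mitochondria. Its brightest probe set, 1422186_s_at, read 6814.0 and 6075.7 in cell bodies against 20710.8 and 22321.1 in pseudopodia, a difference of 1.74 ± 0.14. On 1422185_a_at the values were 6517.9 and 5775.9 against 18986.8 and 18602.4, a difference of 1.61 ± 0.14. These are the smallest SEs among the members, and both probe sets kept the fractions well apart.

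The other Cyb5r3 probe sets varied more between arrays. On 1425329_a_at the cell body values were 1045.2 and 627.1 and the pseudopodia values 6605.6 and 2802.1, a difference of 2.39 ± 0.41 and the 2nd largest of all kept probe sets. Replicate 1 was the brighter array in both fractions, and the 4 array pairs ranged from 1.41 to 3.36. The last, 1430734_at, was too dim to be kept: it read 12.8 and 6.8 in cell bodies against 17.4 and 24.9 in pseudopodia, with pair differences of 0.21 and 0.84.

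Inpp1 encodes inositol polyphosphate 1-phosphatase, which removes a phosphate in the recycling of inositol, and its probe sets gave unlike results. Probe set 1418045_at read 226.4 and 189.7 in cell bodies against 201.9 and 217.6 in pseudopodia, so the fractions overlapped and the difference was 0.01 ± 0.23. Probe set 1442073_at read 26.1 and 8.0 in cell bodies against 63.7 and 119.6 in pseudopodia, a difference of 1.71 ± 0.44. The fractions were apart on the second probe set, yet its ratio was 2.44 in pair 1 and 14.95 in pair 2.

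Dynll2 encodes a dynein light chain that also serves as a dimerising hub for many other proteins. Probe set 1418371_at read 1808.3 and 2436.7 in cell bodies against 2105.8 and 2403.0 in pseudopodia, so the fractions overlapped and the difference was 0.10 ± 0.21. Probe set 1418258_s_at read 671.3 and 491.4 in cell bodies against 2756.8 and 1838.4 in pseudopodia, a difference of 1.94 ± 0.26, with 4.11-fold in pair 1 and 3.74-fold in pair 2. The annotation names the second probe set Dynll2 but pairs it with a RefSeq transcript that the RefSeq gene table gives to Arhgdia. Such a conflict was found for 16 of 5884 probe sets whose transcript could be looked up (0.272%), and for 1 of the 6 member probe sets with a RefSeq transcript. Without that probe set the median member difference was 1.72, and the only other probe set for Dynll2 gave no separation of the fractions.

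**Figure D2:**
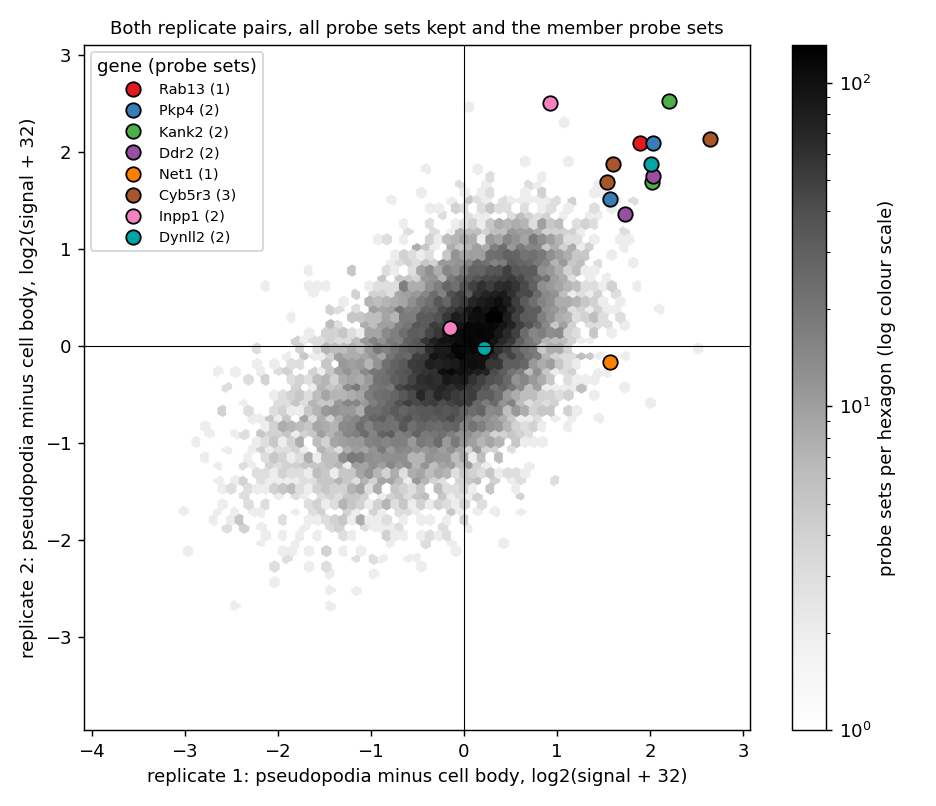
Difference between pseudopodia and cell body on the log2 scale in replicate pair 1 (horizontal axis) and replicate pair 2 (vertical axis) for the 15 kept member probe sets (coloured by gene), over all kept probe sets in grey, darker where more fall. Net1 is positive in pair 1 (1.57) and just below 0 in pair 2 (-0.17), and Inpp1 1442073_at has the largest gap in the other direction (0.92 and 2.50).

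Probe sets of 1 gene agreed closely for Ddr2, Kank2 and Pkp4, whose differences spanned 0.35, 0.51 and 0.53, and lay further apart for Inpp1 (1.69) and Dynll2 (1.84). The 3 kept probe sets of Cyb5r3 spanned 0.77, and 1.86 with the dim one that was not kept. The suffix of a probe set states what it was designed for: 10 of the 16 end in _at, 4 in _a_at (several transcripts of 1 gene) and 2 in _s_at (several transcripts, possibly of more than 1 gene). The 12 probe sets past 1.5-fold kept a positive difference under every scaling and pseudocount tried. The filter does not alter a difference. Leaving out 1 array could not change the sign, because all 4 array pairs of these probe sets were positive by definition. With scaling on the hybridization controls the difference was 1.67 for Rab13, 1.74 for Pkp4 1452209_at and 1.52 for Kank2 1460559_at. It was -0.29 for Inpp1 1418045_at and -0.23 for Dynll2 1418371_at, where the median of all kept probe sets was -0.32.

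Closest relatives of the members, listed by family, were examined as a description. Of the 24 relatives listed, 18 had a kept probe set, each gene being represented by its brightest. Limma called 0 of them higher and 0 lower (adjusted over genes; at an unadjusted p under 0.05 there were 1 and 2), where 0.876% of 10962 genes were called higher and 1.64% lower. At those shares, 0 calls among 18 genes do not set the relatives apart from other genes. The relatives' median difference was 0.06, against 0.01 over all genes, and -0.25 against -0.29 with scaling on the hybridization controls.

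For Rab13, the related GTPases Rab8a, Rab8b and Rab10 gave 0.05 ± 0.20, 0.49 ± 0.32 and 0.13 ± 0.40. For Pkp4, the armadillo-repeat relatives Pkp1, Pkp2, Pkp3, Ctnnd1 and Arvcf gave -0.18, 0.08, 0.27, -0.47 and -0.58. All of these differences were smaller than those of Rab13 and Pkp4. Rab13 and Pkp4 were picked with this comparison known, so nothing is read from that. For Cyb5r3, its family members Cyb5r1, Cyb5r4 and Cyb5rl gave -0.20, 0.51 and 0.24. For Inpp1, the lithium-sensitive phosphatases Bpnt1, Bpnt2 and Impa1 gave -0.27, 0.44 and -0.16. Dimmer kept probe sets had the other sign for Bpnt2 (-0.69 and -0.46) and Impa1 (0.21), and the same sign for Bpnt1 (-0.31).

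Kank1, the paralogue of Kank2, read 208.1 and 201.0 in cell bodies against 124.4 and 77.8 in pseudopodia, a difference of -0.94 ± 0.28 (limma adjusted p = 0.111). With the replicate pair as a block Kank1 was called lower (adjusted p = 0.0191), though its dimmer probe set gave 0.26. Kank3 gave 0.31 ± 0.24. The fractions of Kank1 were apart in the direction opposite to Kank2.

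Ddr1, the other collagen-activated receptor of the Ddr2 family, differed by probe set. Its brightest, 1456226_x_at, read 4618.3 and 4668.6 in cell bodies against 2629.5 and 6109.4 in pseudopodia, a difference of -0.21 ± 0.35. On 1415797_at it read 2160.6 and 1473.9 against 779.8 and 459.8, a difference of -1.55 ± 0.30 (limma adjusted p = 0.0388 over probe sets), and on 1415798_at the difference was -1.62 ± 0.33 (adjusted p = 0.0429). Its other 5 probe sets lay between -0.78 and 0.02.

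Dynll1, the near-identical paralogue of Dynll2, read 14683.1 and 13401.5 in cell bodies against 20216.4 and 21697.1 in pseudopodia. The difference was 0.58 ± 0.13 (limma adjusted p = 0.0619), and its other 3 probe sets gave 0.56, 0.63 and 0.54. With the replicate block it was called higher (adjusted p = 0.00216), so the block moved the relatives from 0 calls to 1 higher and 1 lower. Ctnnd2, Kank4, Cyb5r2 and Arhgef3, the relative of Net1, were too dim to be kept, and Impa2 and Impad1 (an older name of Bpnt2) had no probe set with 1 symbol.

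**Figure D3:**
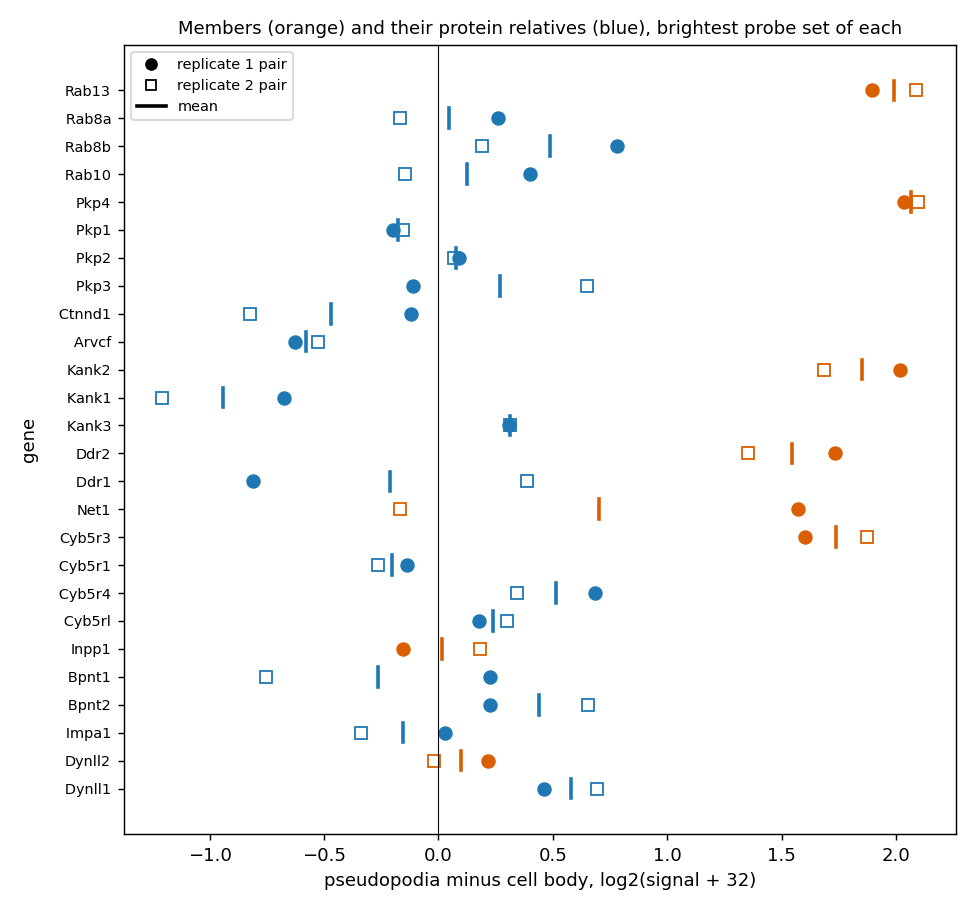
Difference between pseudopodia and cell body on the log2(signal + pseudocount) scale for the members (orange) and their relatives (blue), 1 gene per line by its brightest probe set. Filled circles are replicate pair 1, open squares replicate pair 2, and the upright bar is their mean: Rab13, Pkp4, Kank2, Ddr2 and Cyb5r3 have means between 1.54 and 2.06, and the relatives between -0.94 and 0.58.

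Binding partners and pathway neighbours of the members were also listed, with earlier results of these data known, so nothing is read from the counts of calls. Of 51 names, 40 had a kept probe set, and limma called 4 higher and 0 lower (7 and 6 at an unadjusted p under 0.05), where 0.876% and 1.64% of all genes were called. The median difference was -0.07, against 0.01 over all genes. The 4 called genes were Ppfia1, Phldb2, Dync1li2 and Gdi2. With the replicate block there were 6 higher and 6 lower.

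Ppfia1 and Phldb2 encode liprin-α1 and LL5β, parts of the cortical complex to which Kank proteins bind. Ppfia1 read 151.9 and 159.3 in cell bodies against 546.4 and 549.3 in pseudopodia, a difference of 1.72 ± 0.22 (limma adjusted p = 0.0243), and its dimmer probe set gave 0.93. Phldb2 read 63.9 and 98.5 against 247.3 and 237.4, a difference of 1.43 ± 0.27 (limma adjusted p = 0.0468). The Phldb2 call was lost with a pseudocount of 16 (adjusted p = 0.0504), median centring (0.0520), no filter (0.0780) and hybridization control scaling (0.0831). The fractions were apart for both genes. Other genes of that complex and its adhesion link, Ppfibp1, Erc1, Kif21a, Tln1 and Tln2, were not called by their brightest probe sets. These gave -0.05, 0.13, 0.30, -0.42 and -0.26. A dimmer Tln1 probe set, 1457782_at, gave -1.45 (limma adjusted p = 0.0437 over probe sets), and a dimmer Ppfibp1 probe set gave -1.35 (0.103). Their remaining kept probe sets ranged from -0.17 to 0.32.

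Dync1li2, a light intermediate chain of the dynein motor that Dynll2 also joins, read 523.7 and 570.3 in cell bodies against 1234.4 and 1139.2 in pseudopodia, a difference of 1.10 ± 0.20 (limma adjusted p = 0.0428), and 0.71 on its other probe set. The Dync1li2 call was lost with median centring (adjusted p = 0.0524), no filter (0.0530) and hybridization control scaling (0.156). The dynein heavy chain gene Dync1h1 gave -0.75 ± 0.20 on its brightest probe set (limma adjusted p = 0.0840 over genes). With the block it was called lower (adjusted p = 0.00291). On its dimmer probe set, 1439950_at, the difference was -1.94 ± 0.30 (limma adjusted p = 0.0250 over probe sets). Gdi2, which extracts Rab proteins such as Rab13 from membranes, gave 0.87 ± 0.15 (adjusted p = 0.0413) on its brightest probe set, from 5530.7 and 6293.5 to 10323.0 and 11344.2. Its other 5 probe sets ranged from -1.11 to 0.76, and the Gdi2 call was lost on the mean of its probe sets (0.18, adjusted p = 0.652), with single-transcript probe sets only (0.179), with no filter (0.0791) and with hybridization control scaling (0.116). The block also called Cyb5a, the electron acceptor of Cyb5r3, and Rock1 higher (0.71 and 0.72). It called the collagens Col1a1 and Col3a1, ligands of Ddr2, lower (-0.41 and -0.37), and among the others Cdh2 and Micall1 lower (-0.88 and -0.61). The dimmer probe set 1455494_at of Col1a1 went the other way (0.41). Dimmer probe sets gave -0.77 for Col3a1 and, without the block, -1.17 for Cdh2 (limma adjusted p = 0.0458 over probe sets). Col1a2 and Ctnnb1 were not called by their brightest probe sets (-0.31 and -0.24). Without the block, dimmer ones gave -0.98 for Col1a2 on 1423110_at and -1.55 for Ctnnb1 on 1430533_a_at (limma adjusted p = 0.0245 and 0.0276 over probe sets).

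The genes tied to the anchoring and transport of protrusion RNAs gave 3 higher and 0 lower calls among 18 with a kept probe set, of 22 names (6 and 0 at an unadjusted p under 0.05), where 0.876% and 1.64% of all genes were called. These genes too were listed with earlier results of these data known, so nothing is read from the counts. Their median difference was 0.24, and -0.08 with scaling on the hybridization controls, where all genes had -0.29. Kif1c, a kinesin that carries such RNAs and whose own RNA has been named among them, read 1149.0 and 1378.7 in cell bodies against 4661.3 and 6704.9 in pseudopodia, a difference of 2.14 ± 0.22 (limma adjusted p = 0.0187). Its other 3 probe sets gave 0.22, 0.41 and 0.86, so Kif1c too differed by probe set.

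Kif5b, a kinesin-1 heavy chain, read 250.4 and 266.1 in cell bodies against 703.5 and 678.4 in pseudopodia, a difference of 1.37 ± 0.21 (limma adjusted p = 0.0346), with 0.15 to 1.34 on its other 4 kept probe sets. The Kif5b call was lost on the mean of its kept probe sets (0.83, adjusted p = 0.0728) and with hybridization control scaling (adjusted p = 0.0751). Svbp, the small partner of the enzymes that detyrosinate tubulin, read 2131.9 and 2090.3 against 3617.0 and 4425.6, a difference of 0.92 ± 0.18 (adjusted p = 0.0474). The Svbp call was lost with a pseudocount of 16 (adjusted p = 0.0506), median centring (0.0520), no filter (0.0686) and hybridization control scaling (0.152). Apc itself read 151.8 and 160.6 against 360.4 and 343.9, a difference of 1.10 ± 0.22 that just missed the threshold (adjusted p = 0.0505). The fractions were apart for these 3 genes. With the replicate block 6 were called higher, Kif1c, Kif5b, Svbp, Apc, Mapre1 (0.66) and Pabpc1 (0.37), and 0 lower. Dimmer Mapre1 probe sets gave 0.06 to 0.92, but the dimmer Pabpc1 probe set gave -1.28. Clasp1 gave 0.49 on its brightest probe set, which was not called. On its dimmer probe set 1460102_at it gave -1.19 (limma adjusted p = 0.0429 over probe sets, without the block). Without the variance trend, and also without either cell body array, limma called 0 probe sets of the whole table (4487, 2502 and 2959 at an unadjusted p under 0.05), so every call named here among partners and anchoring genes was lost in those fits.

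**Figure D4:**
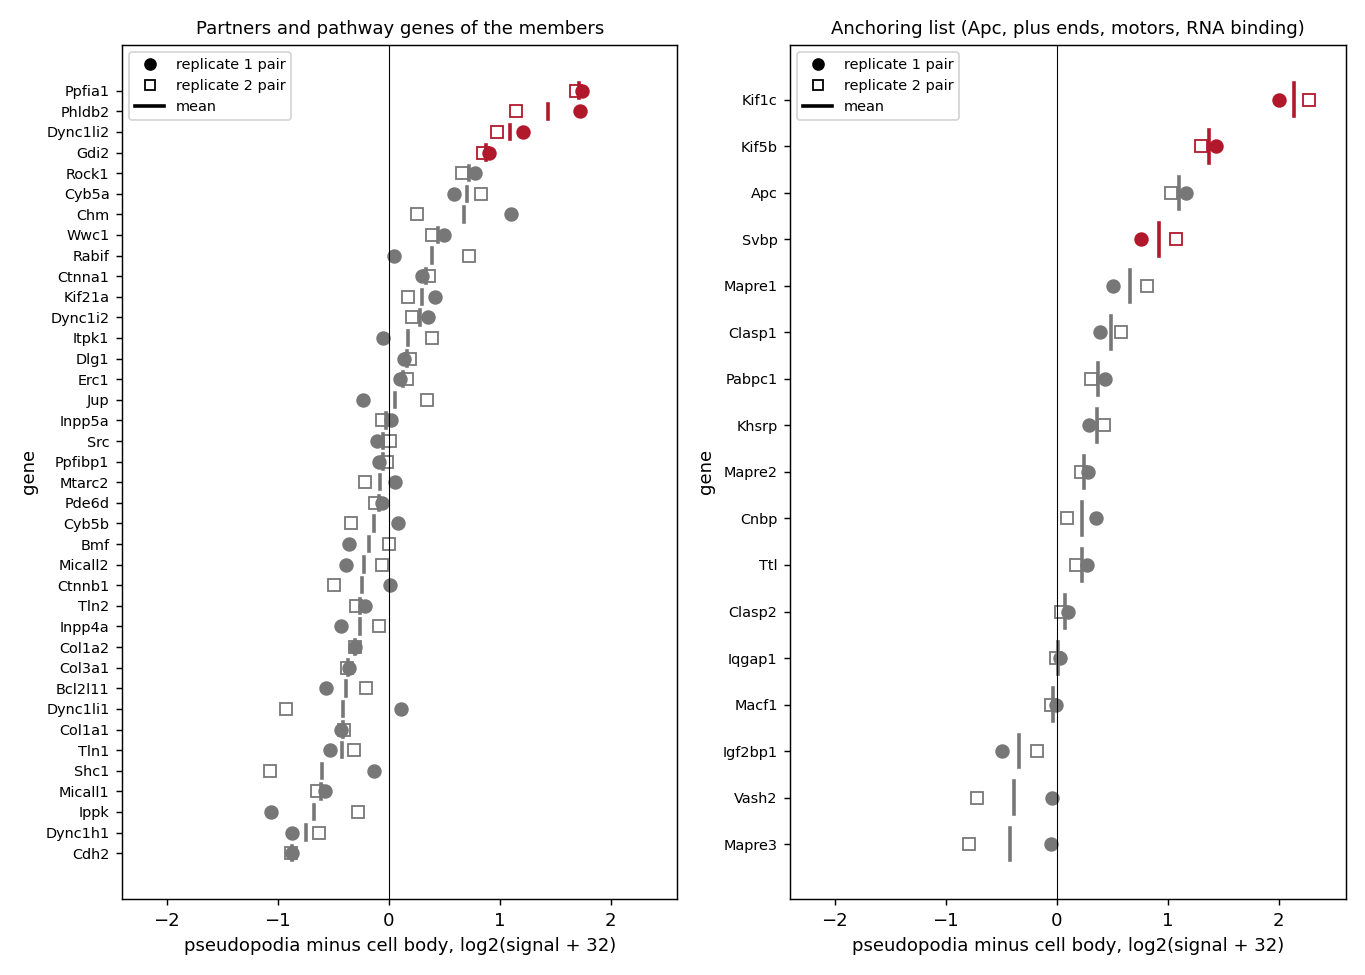
Difference between pseudopodia and cell body on the log2(signal + pseudocount) scale for the partner genes shown (left) and the anchoring genes (right), 1 gene per line by its brightest kept probe set, with Dlg1, a member of both lists, on the left only and genes called by limma in red. Filled circles are replicate pair 1, open squares replicate pair 2 and the upright bar their mean, which is largest for Kif1c (2.14), Ppfia1 (1.72) and Phldb2 (1.43).

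Genes with the pattern most like each member were found by the distance between log2 values centred on their mean over the 4 arrays, among 10954 genes outside the members, each by its brightest kept probe set. A list of nearest genes over 4 arrays rests mostly on the size of the fraction difference. The nearest to Rab13 were Gm6225, Cenpb and Trp53inp2, at distances of 0.17, 0.22 and 0.27. The nearest to Pkp4 were Kif1c, Trp53inp2 and Wnt7b (0.21, 0.25 and 0.37), and to Kank2 they were Ppfia1, Trp53inp2 and Wnt7b (0.19, 0.20 and 0.21). Trp53inp2 was thus among the nearest 3 of 3 members. Gm6225 read 11.2 and 5.4 in cell bodies against 70.6 and 69.9 in pseudopodia, and Wnt7b read 8.4 and 16.2 against 79.7 and 80.0. Their cell body values lay under the limit of 27.8, so their distances depend on the pseudocount.

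The nearest to Cyb5r3 were Sh3bgrl, Ints6 and Ppfia1 (0.10, 0.17 and 0.18), and to Ddr2 they were Zbtb12, Cplx2 and Naa50 (0.21, 0.22 and 0.32). Only 2 to 7 genes lay within 0.25 of Rab13, Pkp4, Kank2, Ddr2 or Cyb5r3. For Net1 there were 0, and its nearest were Stxbp2, Ccl5 and Gm20346 (0.52, 0.56 and 0.64). Inpp1 and Dynll2, taken by their brightest probe sets, which differed little between fractions, had 938 and 601 genes within 0.25. Their nearest were Glul, Lin7c and Echdc3 for Inpp1, and Grpel2, Imp4 and AW011738 for Dynll2, each at a distance of 0.03. Among the members, Rab13 and Cyb5r3 were 0.29 apart, Rab13 and Kank2 0.34, and Pkp4 and Ddr2 1.00.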

How the data were processed

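Total RNA of 2 pseudopodia and 2 cell body samples of NIH/3T3 cells was measured on Affymetrix arrays, 1 colour, 1 array per sample. The deposited values are linear intensities, which the submitters' processing notes tie to MAS5; the version and the scaling target are not given in the sources used here. Each array's 2% trimmed mean was 250.0 as found in the values, so the arrays had been scaled to a common target. The depth of an array is not a read depth, and the number of arrays limits the precision.

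Each array was rescaled here so that its 2% trimmed mean was 500, then 32 was added and log2 taken. Of the probe sets other than controls, the brighter part by mean log2 value was kept (22519), split at the median. The test between fractions was limma (version 3.58.1, under R 4.3.3, two-sided, eBayes with a variance trend, Benjamini-Hochberg adjustment, threshold 0.05). The fit was also run on simulated data with the same spread for every probe set, which cannot check the variance trend. An exact permutation test of 2 against 2 arrays cannot go below p = 0.333 and was not used. Genes were represented by their brightest kept probe set, with p-values adjusted over 10962 genes. Same-numbered arrays shared an experiment code in the series' design text and a scan day per the file headers, with a correlation of 0.243 between the fractions' replicate deviations over all kept probe sets, so the replicate pair was used as a block in a second fit.

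Members and lists were chosen with earlier results of these data known. The text names every member by every probe set with 1 symbol, and the 3 nearest genes to each member. It also names every called gene and every relative in the relatives, partners and anchoring lists. Genes that the replicate block called but the first fit did not were named after their values were seen. So were Apc, genes of the Kank complex and other probe sets. Promoter windows and gene names came from RefSeq tables. No genome was used, so the place of each probe set in its transcript was not analysed here. Alternatives were the pseudocount, filter, normalization, replicate block, variance trend, choice of probe set and leaving out each array. Some genes of the partners list are counted but not reported by name here.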

Additional observations from a re-analysis of the deposited data

How the results depend on the processing

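With 2 arrays per fraction, the sample number limits every test here, and MAS5 makes signals near the background unreliable, which touches Net1, Inpp1 1442073_at and Cyb5r3 1430734_at most. The count of 12 member probe sets past 1.5-fold was 11 to 13 under every alternative tried. Leaving out 1 array could not lower that count, because it leaves fewer array pairs to pass. The median member difference of 1.74 was 1.88 with a pseudocount of 16, 1.72 with no filter, 1.71 with quantile normalization, 1.72 with median centring, 1.48 with scaling on the hybridization controls, and 1.66 to 1.94 without 1 array. Leaving out the Dynll2 probe set 1418258_s_at, an alternative chosen after seeing the data, gave 1.72.

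Over all kept probe sets, limma called 243 higher and 747 lower. With no filter, when more probe sets were tested, there were 39 and 137. Scaling on the hybridization controls gave 54 and 1510, with the median of all shifted down. The replicate block gave 1541 and 2546, and leaves 1 residual degree of freedom in place of 2. Without the variance trend there were 0 and 0 (limma gave 4487 raw p-values under 0.05, and 4956 when the trend was used). Without 1 array the counts ran from 0 to 1304 higher and from 0 to 2652 lower, with 0 in limma's test without either cell body array (2502 and 2959 at an unadjusted p under 0.05). The cause of these moves was not tested.

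For the partners, 4 higher and 0 lower became 1 higher with no filter, 2 higher with median centring, 1 higher and 4 lower with hybridization control scaling, 0 higher without the trend, 2 lower with quantile normalization, 3 lower with the mean of a gene's probe sets, and 6 and 6 with the replicate block. Without 1 array they ran from 0 to 6 in each direction. For the anchoring genes, 3 higher became 1 with hybridization control scaling, 6 with the replicate block and 0 without the trend. Without 1 array there were 0 to 5 higher and 0 to 1 lower. For the relatives, 0 and 0 became 1 and 1 with the replicate block, and 1 lower with single-transcript probe sets only. Without 1 array there were 0 to 2 in each direction.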
